A study of Mus musculus with 6 samples.

Results

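The immunoproteasome and the peptide-loading machinery of MHC class I were followed through 10 genes in splenic germinal centre B cells: the immunoproteasome subunits Psmb8, Psmb9 and Psmb10, the proteasome activator subunits Psme1 and Psme2, the peptide transporter subunits Tap1 and Tap2, the loading factor Tapbp, the class I light chain B2m and the class I transactivator Nlrc5. The genes were chosen by name. Each was read by the brightest array probe set that the platform annotation assigns to it alone, and 9 of the 10 had such a probe set, out of 18193 genes measured in this way. The single probe set for Psme2 is shared with Psme2b in the annotation, so no value is given for Psme2.

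The cells came from mice immunised with sheep red blood cells and were purified with magnetic beads. ImHABCL6 mice, which express tagged BCL6, the repressor that defines germinal centre B cells, from an immunoglobulin heavy-chain promoter, were the controls (3 arrays). ImHABCL6/Uchl1 mice carried the same BCL6 allele and in addition a genetic change labelled Uchl1, a deubiquitinating enzyme (3 arrays). What drives Uchl1, and how old the mice were, is not given in the labels. The comparison asked whether Uchl1 alters the transcriptome of germinal centre B cells that express BCL6 from this allele.

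Cells show peptides from their own proteins to CD8 T cells on MHC class I. The proteasome cuts the proteins, the TAP transporter carries the peptides into the endoplasmic reticulum, and tapasin, the product of Tapbp, helps to place them on a heavy chain paired with β2-microglobulin. Interferon gamma replaces the standard catalytic subunits of the proteasome, encoded by Psmb5, Psmb6 and Psmb7, with Psmb8, Psmb9 and Psmb10, and immune cells such as lymphocytes carry these subunits without stimulation. NLRC5 drives the promoters of class I genes together with RFX and NF-Y proteins. The pathway matters for germinal centre B cells because lymphomas that arise from them often lose class I display.

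Several members are neighbours in the genome. In the RefSeq annotation of mouse assembly GRCm38.p6, Psmb9, Tap1, Psmb8 and Tap2 follow each other on chromosome 17 in the MHC with no other protein-coding gene between them, and Tapbp lies on the same chromosome. Psmb9 and Tap1 are transcribed away from each other, and the bases between their starts serve as a shared promoter region. Promoters were available in the RefSeq table for 8 of the 10 members, all but Tap2 and Nlrc5. The whole stretch between the Psmb9 and Tap1 starts is shown because both genes start from it, and the 150 bases before the starts of Psmb8 and B2m because they hold matches to elements that interferon-activated factors are known to bind. Motifs are in capitals. The first sequence is chr17:34187331-34187555, plus strand, the second chr17:34198045-34198194, plus strand, and the last chr2:122147537-122147686, plus strand, all of GRCm38.p6.
Psmb9-Tap1: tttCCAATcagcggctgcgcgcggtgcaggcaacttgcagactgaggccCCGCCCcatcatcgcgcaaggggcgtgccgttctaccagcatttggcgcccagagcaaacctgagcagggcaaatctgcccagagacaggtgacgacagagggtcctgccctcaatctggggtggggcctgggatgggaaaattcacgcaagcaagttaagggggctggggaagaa
Psmb8: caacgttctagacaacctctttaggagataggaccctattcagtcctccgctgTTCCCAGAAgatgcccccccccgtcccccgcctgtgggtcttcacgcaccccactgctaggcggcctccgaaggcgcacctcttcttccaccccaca
B2m: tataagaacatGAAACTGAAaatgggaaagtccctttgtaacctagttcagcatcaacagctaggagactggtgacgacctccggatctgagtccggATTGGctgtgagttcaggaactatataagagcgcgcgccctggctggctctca

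The capitals in B2m mark a match to the core of the interferon-response element (GAAANNGAA) and a CCAAT box, the NF-Y site, on the opposite strand. Those in Psmb8 mark a match to the STAT-bound GAS element (TTCNNNGAA). Those between Psmb9 and Tap1 mark a CCAAT box next to the Psmb9 start and a GC box (GGGCGG) on the opposite strand. Both strands were searched in the 250 bases before each start. The interferon-response core was found in 1 of 8 members and in 7.15% of 32536 promoter windows of that length, and the GAS element in 1 of 8 and 7.04%. The CCAAT box was found in 4 of 8 members against 33.8% of windows and the GC box in 5 of 8 against 33.0%. The exact letters GGGANTTCC, a form of the κB-type element (1.44% of windows), were found in 0 of 8. Longer forms of the κB-type element were not searched, in B2m or any other member. This count thus does not show that the promoters lack such an element. The core of the cyclic AMP response element (TGACGT, 6.5%) was also found in 0 of 8. The CCAAT box and the GC box in the windows of Psmb9 and Tap1 are each the same site, counted for both genes. Such matches describe letters and not bound sites.

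The 6 arrays had medians from 5.56 to 5.67 on the log2 scale. Uchl1 did not overlap between the groups, at 4.999 to 5.019 in controls and 5.87 to 6.02 in ImHABCL6/Uchl1 arrays, although its difference of 0.94 (SE 0.12) had a limma adjusted p of 0.638 over all genes. Bcl6 overlapped (11.05 to 11.22 and 11.16 to 11.63). The mean level of 7 measured B-cell markers was 10.78 to 10.88 in controls and 10.91 to 11.24 in ImHABCL6/Uchl1 arrays, with no overlap. Of these, 6 of 7 were higher (median 0.13), and limma called 0 of 7. Pax5 and Ebf1, 2 of 7, were higher in all 3 arrays, as were 3.95% of all genes. Without ImHABCL6/Uchl1 replicate 1 the markers were higher in 4 of 7 cases (median 0.02). With the erythroid mean as a covariate 3 of 7 were higher (median -0.04). Mean levels of 9 germinal centre markers ran from 10.62 to 11.24 on the 6 arrays, and those of 8 T-cell markers from 4.87 to 5.20. Erythroid transcripts were also high: 15 of 21 listed markers were measured, and their mean level was 10.37 to 11.25 in controls and 8.90 to 10.67 in ImHABCL6/Uchl1 arrays, with the lowest value on ImHABCL6/Uchl1 replicate 1. Of these 15, 14 were lower in ImHABCL6/Uchl1 mice (median -1.02), and limma called 0 of 15. With no overlap 4 of 15 were lower, against 5.49% of all genes. At an unadjusted limma p under 0.05 the count was 8 of 15, against 4.94% of all genes. Without ImHABCL6/Uchl1 replicate 1, 13 of 15 were lower and the median was -0.56. Erythroid transcripts were thus present beside those of B cells, and in such bulk samples fewer cells of a type and less RNA per cell cannot be told apart. Arrays of a group are taken as separate mice from the design text, which gives 3 mice of each genotype.

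None of the 9 measured members differed between the genotypes beyond the spread between mice. Log2 differences, ImHABCL6/Uchl1 minus control, ran from -0.18 for Nlrc5 to 0.11 for Tap2, and 5 of 9 were below 0, where 49.4% of all genes were. The median difference was -0.00044 for the members and 0.0029 for all genes. With limma, 0 of 9 members had a Benjamini-Hochberg adjusted p under 0.05 (smallest 0.998), as had 0% of all 18193 genes. At an unadjusted p under 0.05 the count was again 0 of 9 (smallest 0.581), against 4.94% of all genes. For 0 of 9 members did the 3 ImHABCL6/Uchl1 arrays all lie under the controls, and for 0 of 9 did they all lie above, where 5.49% and 3.95% of all genes did. Exact two-sided permutation tests of the single genes gave p from 0.7 to 1, where 3 arrays against 3 cannot go below 0.1.

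These values do not show that the genotypes are alike. The 95% intervals of the 9 differences together ran from -0.90 to 0.71, so a member could be up to 1.86-fold lower or 1.64-fold higher and still lie within its interval. The count of lower members rested on single mice: it was 0 of 9 without ImHABCL6 replicate 1, 8 of 9 without ImHABCL6 replicate 2, 1 of 9 without ImHABCL6/Uchl1 replicate 2 and 8 of 9 without ImHABCL6/Uchl1 replicate 3. With the erythroid mean as a covariate 9 of 9 were lower, with a median of -0.34 and a smallest limma adjusted p of 0.349, and with array weights 1 of 9 was lower, with a median of 0.18.

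**Figure D1:**
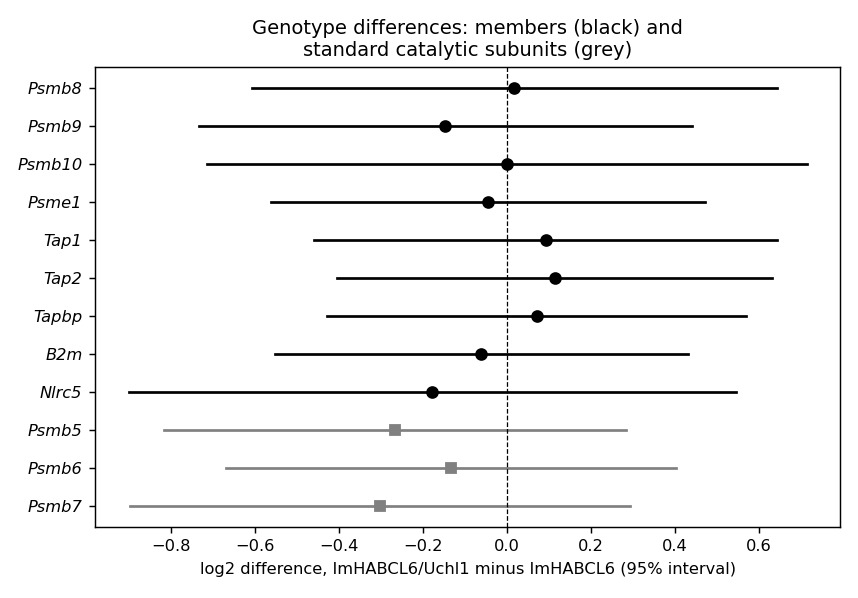
Log2 differences, ImHABCL6/Uchl1 minus ImHABCL6 (x axis), for the 9 measured members (black circles) and the 3 standard catalytic subunits Psmb5, Psmb6 and Psmb7 (grey squares), with 95% intervals from limma over 3 arrays a group. Every interval contains 0, and the members lie on both sides of it, from -0.18 for Nlrc5 to 0.11 for Tap2.

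The immunoproteasome catalytic subunits were bright on all arrays and varied between mice by up to 2.17-fold. Psmb8, the chymotrypsin-like subunit that replaces Psmb5, read 12.58, 12.37 and 11.95 in ImHABCL6 mice and 12.69, 11.74 and 12.52 in ImHABCL6/Uchl1 mice. The highest and the lowest of the 6 values were both ImHABCL6/Uchl1 mice, and the groups overlapped. The means were 12.30 ± 0.32 and 12.32 ± 0.51 (SD, n = 3 each), a difference of 0.02 (SE 0.27, limma adjusted p = 0.998).

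Psmb9, which replaces Psmb6, read 12.07, 11.57 and 11.49 in ImHABCL6 mice and 11.81, 11.04 and 11.85 in ImHABCL6/Uchl1 mice. ImHABCL6/Uchl1 replicate 2 was the lowest and the other two of its group lay within the range of the controls. The means were 11.71 ± 0.31 and 11.57 ± 0.46 (SD, n = 3 each), a difference of -0.15 (SE 0.25, limma adjusted p = 0.998). Psmb10, which replaces Psmb7, read 10.92, 10.33 and 10.08 in ImHABCL6 mice and 10.71, 9.80 and 10.82 in ImHABCL6/Uchl1 mice. The 6 mice stood in the same order as for Psmb9, and the groups overlapped. Its means were 10.44 ± 0.43 and 10.44 ± 0.56 (SD, n = 3 each), a difference of -0.00044 (SE 0.31).

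Psme1 encodes a subunit of the activator ring PA28, which caps the proteasome and is also induced by interferon gamma. Its level was 12.04, 11.58 and 11.39 in ImHABCL6 mice and 11.76, 11.25 and 11.86 in ImHABCL6/Uchl1 mice, or 11.67 ± 0.33 and 11.62 ± 0.33 (SD, n = 3 each). The groups overlapped, with ImHABCL6 replicate 1 on top and ImHABCL6/Uchl1 replicate 2 at the bottom, as for Psmb9 and Psmb10. The difference was -0.05 (SE 0.22, limma adjusted p = 0.998).

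Transport and loading genes spread over a similar range but ordered the controls differently. Tap1, the transporter subunit that is divergently transcribed from Psmb9, read 11.23, 10.44 and 10.59 in ImHABCL6 mice and 10.82, 10.58 and 11.15 in ImHABCL6/Uchl1 mice. ImHABCL6 replicate 2 was the lowest of the 6, where Psmb9 was lowest in ImHABCL6/Uchl1 replicate 2, although both genes start from the stretch printed above. The means of Tap1 were 10.75 ± 0.42 and 10.85 ± 0.29 (SD, n = 3 each), a difference of 0.09 (SE 0.24, limma adjusted p = 0.998).

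Tap2, the partner of Tap1 in the transporter, read 10.21, 9.57 and 9.67 in ImHABCL6 mice and 10.12, 9.57 and 10.11 in ImHABCL6/Uchl1 mice. In all, 1 control mouse and 2 ImHABCL6/Uchl1 mice were high and the other three low, and the difference of 0.11 (SE 0.22, limma adjusted p = 0.998) was the largest upward one among the members. Tapbp, which encodes tapasin, the bridge between the transporter and an empty class I molecule, read 11.30, 10.69 and 10.94 in ImHABCL6 mice and 10.99, 10.76 and 11.39 in ImHABCL6/Uchl1 mice. The groups overlapped, with means of 10.98 ± 0.31 and 11.05 ± 0.32 (SD, n = 3 each), a difference of 0.07 (SE 0.22, limma adjusted p = 0.998).

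B2m, the light chain of every class I molecule, was at 13.66, 13.02 and 13.48 in ImHABCL6 mice and 13.46, 13.00 and 13.52 in ImHABCL6/Uchl1 mice. Replicate 2 was the low mouse in each group, and the means were 13.39 ± 0.33 and 13.33 ± 0.29 (SD, n = 3 each), a difference of -0.06 (SE 0.21, limma adjusted p = 0.998).

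Nlrc5, the transactivator of class I genes, varied most. It read 9.82, 8.49 and 9.16 in ImHABCL6 mice and 9.24, 8.998 and 8.71 in ImHABCL6/Uchl1 mice. The controls held both the highest and the lowest value, and all 3 ImHABCL6/Uchl1 arrays lay between them. The means were 9.16 ± 0.66 and 8.98 ± 0.27 (SD, n = 3 each), a difference of -0.18 (SE 0.31, limma adjusted p = 0.998), which was 0.15 without ImHABCL6 replicate 1.

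**Figure D2:**
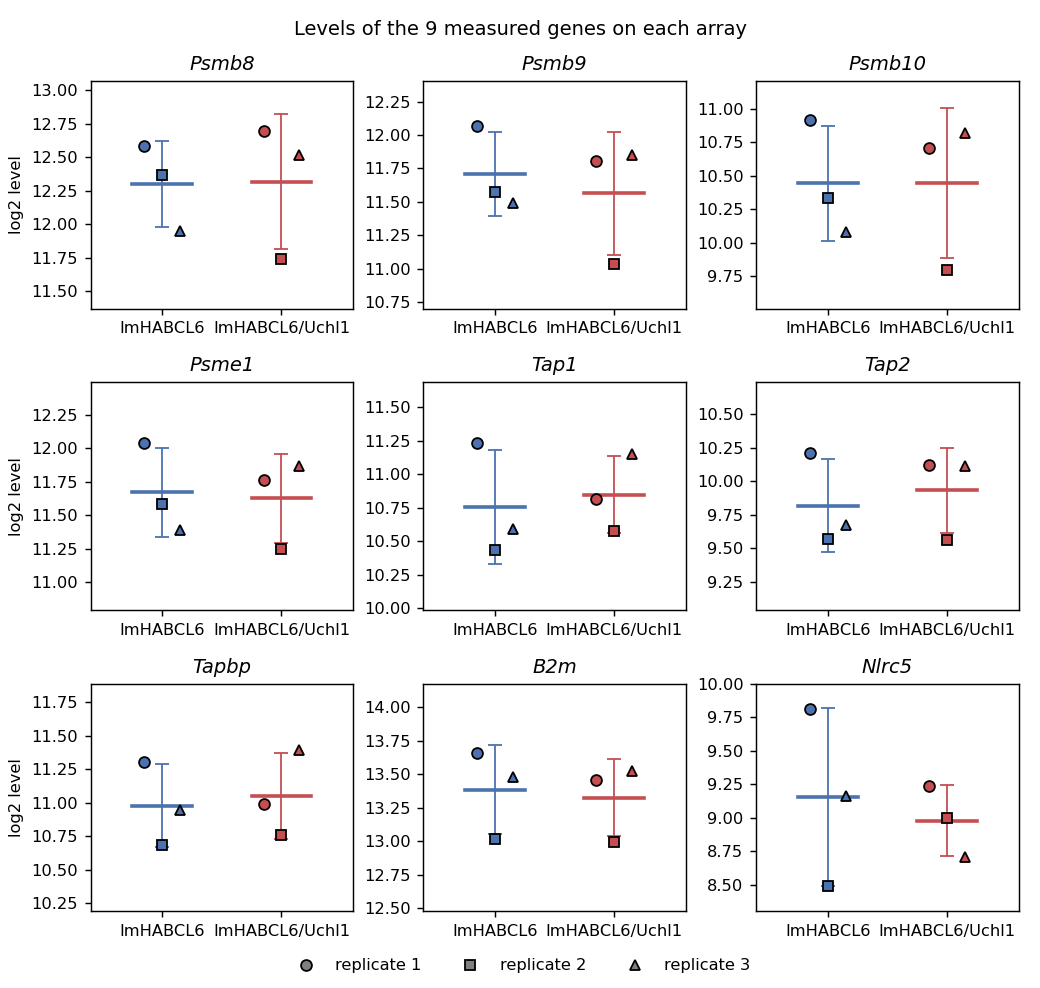
Log2 levels (y axis, all panels span the same number of log2 units) of the 9 measured members in ImHABCL6 (blue) and ImHABCL6/Uchl1 (red) arrays. Symbols are single arrays by replicate number, thick bars are group means and error bars the SD of 3 arrays. The groups overlap in every panel, and the spread within each group is larger than the distance between the means.

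Some members had further probe sets. The second probe sets of Psmb8, Tapbp and B2m differed by 0.12, 0.07 and -0.16 between the genotypes. Over the 6 arrays they followed the main probe sets with Pearson r of 0.917, 0.917 and 0.920, given as a description. For Tap1, 3 dim probe sets (means of 2.86 to 5.14) did not follow the main one (r from -0.02 to 0.23).

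The spread between mice was the larger part of the variation. The range within each group exceeded the genotype difference for 9 of 9 members. The within-group SD of the members had a median of 0.36, against 0.20 for all genes, and each member lay between the 79.6th and 95.2nd percentile of all genes. All members were bright, the dimmest at the 80.3rd percentile of mean level. They were not compared with genes of like brightness, so these values do not show that the members are unusually variable. From the lowest to the highest mouse the members spanned 1.57-fold (Tap2) to 2.50-fold (Nlrc5).

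The members largely varied together between mice of both genotypes. After centring each gene on its mean over the 6 arrays, the mean of the 9 members was 0.41, -0.23 and -0.15 in ImHABCL6 mice and 0.16, -0.38 and 0.20 in ImHABCL6/Uchl1 mice. ImHABCL6 replicate 1 and ImHABCL6/Uchl1 replicates 1 and 3 were thus the high mice. ImHABCL6 replicate 1 was the highest array for 7 of 9 members, and ImHABCL6/Uchl1 replicate 2 the lowest for 6 of 9. Of the 36 pairs of members 31 had a Pearson r above 0.5 over the 6 arrays, with a median of 0.808, or 0.828 with the group means removed. These correlations share 6 arrays and their normalization and are descriptions.

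Within this common pattern the roles ordered the ImHABCL6 mice differently, while their correlations overlapped. The 4 proteasome members had pair correlations of 0.903 to 0.987, and the 4 transport and loading members 0.810 to 0.963. The 16 pairs across both roles had a median of 0.789 and ran from 0.557 (Psmb8 with Tapbp) to 0.917 (Psmb10 with Tap2). For Tap2 the correlations did not split by role: r was 0.809 to 0.917 with the proteasome members and 0.844 to 0.918 within its own role. Their means stood apart most on both replicates numbered 2: the proteasome members were at -0.04 and the transport and loading members at -0.33 on ImHABCL6 replicate 2, and at -0.55 and -0.29 on ImHABCL6/Uchl1 replicate 2. Of the proteasome members 4 of 4 were higher in ImHABCL6 replicate 2 than in replicate 3, and of the transport and loading members 0 of 4. Nlrc5 had the loosest tie, with r from 0.187 (Psmb8) to 0.645 (B2m). The Psmb9 and Tap1 pair, with the shared start region, had an r of 0.771, below that of Psmb9 with Psmb10 on another chromosome (0.968).

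**Figure D3:**
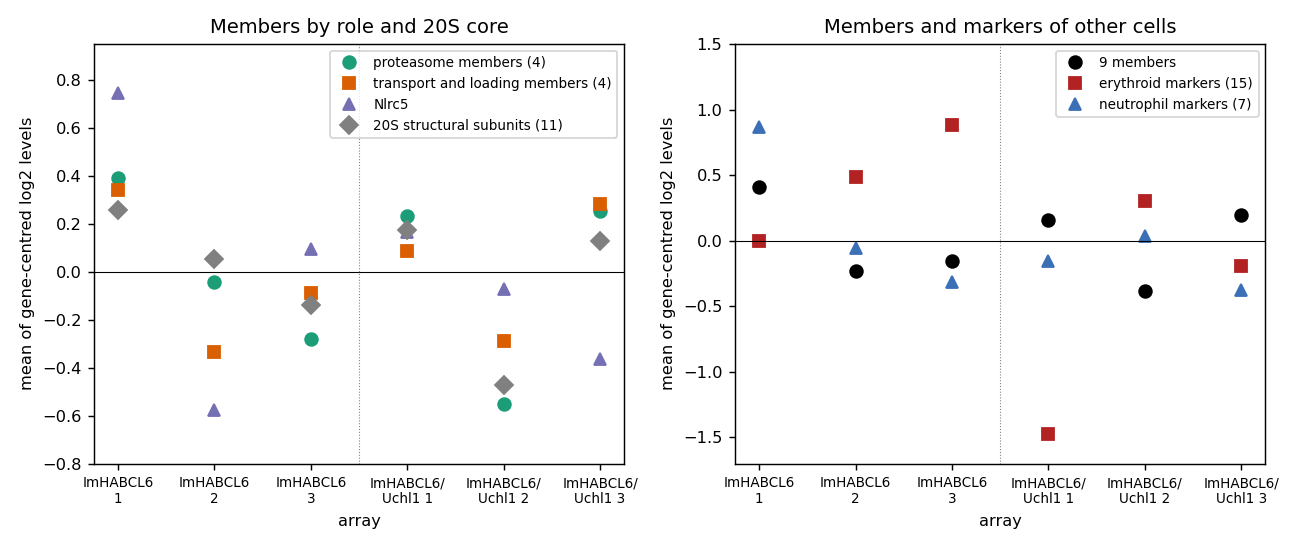
Mean of gene-centred log2 levels (y axis) on each of the 6 arrays (x axis). The left panel shows the 4 proteasome members, the 4 transport and loading members, Nlrc5 and the 11 structural subunits of the 20S core; the right panel shows all 9 members with the 15 erythroid and 7 neutrophil markers measured. Members are high on ImHABCL6 replicate 1 (0.41) and on ImHABCL6/Uchl1 replicates 1 and 3 (0.16 and 0.20), and the erythroid mean is lowest on ImHABCL6/Uchl1 replicate 1 (-1.47).

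Many other genes shared the pattern. Of 18184 other genes 15.5% had an r above 0.7 with the mean of the members, and 2.84% had an r above 0.9. The structural subunits of the 20S core, which every proteasome carries, were at 0.26, 0.05 and -0.14 in ImHABCL6 mice and 0.17, -0.47 and 0.13 in ImHABCL6/Uchl1 mice, close to the proteasome members at 0.39, -0.04 and -0.28 and at 0.23, -0.55 and 0.25. The first principal component of all genes (45.5% of variance) also placed ImHABCL6 replicate 1 (19.5) and ImHABCL6/Uchl1 replicates 1 (32.1) and 3 (12.7) on one side and the remaining arrays (-36.7 to -7.96) on the other. The 3 arrays with high members had the 3 lowest erythroid means: 10.37 in ImHABCL6 replicate 1, and 8.90 and 10.17 in ImHABCL6/Uchl1 replicates 1 and 3, against 10.67 to 11.25 on the other arrays. Over the 6 arrays the member mean and the erythroid mean had a Pearson r of only -0.52. Megakaryocyte and platelet markers, 5 of 6 measured, had mean levels of 7.92, 8.82 and 8.23 in ImHABCL6 mice and 7.57, 8.96 and 8.62 in ImHABCL6/Uchl1 mice. Neutrophil markers, 7 of 8 measured, had a mean level of 6.32 on ImHABCL6 replicate 1 and of 5.08 to 5.49 elsewhere. Of these, 6 of 7 were lower in ImHABCL6/Uchl1 mice (median -0.26, 0 of 7 called by limma). Without ImHABCL6 replicate 1 the count was 3 of 7 and the median 0.04. These markers were dim, with 0 of 7 brighter on average than the median gene. Plasma-cell markers, 6 of 6 measured, had mean levels of 8.81, 8.56 and 8.49 in ImHABCL6 mice and 8.77, 8.55 and 8.76 in ImHABCL6/Uchl1 mice. Their mean was thus highest on the same 3 arrays as the members. The pairs of these markers had a median r of -0.356 over the 6 arrays, so the 6 did not vary as one. The part of erythroid, megakaryocyte, neutrophil, B-cell and plasma-cell marker RNA in the members' pattern was not tested.

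The 8 genes most like the mean of the members over the 6 arrays were Pawr, Nfkbie, Anxa4, Bhlhe40, Zbed5, Rapgef1, Litaf and Pfn2, with Pearson r from 0.988 to 0.997. Nfkbie encodes an inhibitor of NF-κB and Bhlhe40 a transcriptional repressor. Nfkbie read 11.21, 10.07 and 10.05 in ImHABCL6 mice and 10.70, 9.69 and 10.78 in ImHABCL6/Uchl1 mice. Their genotype differences were small, from -0.13 (Pfn2) to 0.03 (Rapgef1). They are named as the nearest of 18184 patterns over 6 arrays, as a description.

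**Figure D4:**
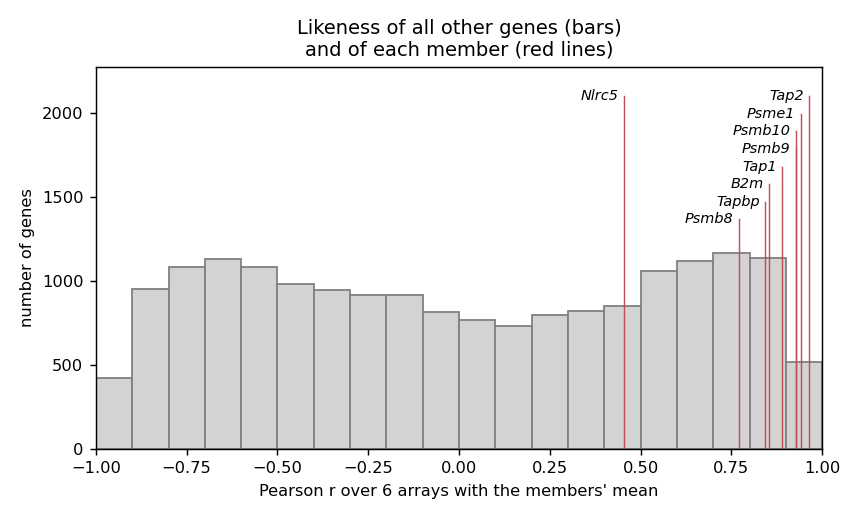
Number of genes (y axis) by their Pearson r over 6 arrays with the mean of the 9 members (x axis). Red lines mark each member's r with the mean of the other members, from 0.454 for Nlrc5 to 0.964 for Tap2; among the other genes, in grey, 15.5% lie above 0.7.

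The standard catalytic subunits gave the closest comparison for the immunoproteasome. Psmb5 read 11.38, 11.40 and 11.01 in ImHABCL6 mice and 11.26, 10.47 and 11.27 in ImHABCL6/Uchl1 mice, a difference of -0.27 (SE 0.24). Psmb6 differed by -0.13 (SE 0.23) and Psmb7 by -0.30 (SE 0.26), both overlapping between groups, and limma gave all 3 an adjusted p of 0.998. The low values came from ImHABCL6/Uchl1 replicate 2, and without that array Psmb5, Psmb6 and Psmb7 differed by 0.00042, 0.11 and 0.02.

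The balance of immunoproteasome over standard subunits was therefore set out as a log2 ratio per array, centred on its mean over the 6 arrays. The ratio of Psmb8 to Psmb5 was 0.03, -0.21 and -0.24 in ImHABCL6 mice and 0.26, 0.10 and 0.07 in ImHABCL6/Uchl1 mice, so that all 3 ImHABCL6/Uchl1 arrays lay above all controls. The difference was 0.28, with an exact two-sided permutation p of 0.1, the smallest possible here, and 0.3 after adjustment over the 3 ratios. It was 0.22 to 0.37 when single arrays were left out and 0.15 with the erythroid covariate. The ratio of Psmb10 to Psmb7 differed by 0.30 with overlapping groups (exact permutation p = 0.4, adjusted 0.6), since ImHABCL6 replicate 1, at 0.26, lay above the ImHABCL6/Uchl1 arrays at 0.14 to 0.17. It was 0.51 without ImHABCL6 replicate 1 and 0.19 without ImHABCL6 replicate 3. The ratio of Psmb9 to Psmb6 differed by -0.01 (exact permutation p = 1, adjusted 1). No ratio passed, and a ratio shows unequal change without saying which gene moved. The ratios were chosen after the values were seen, so their p-values are descriptions. Of all single genes 3.95% lay higher in all 3 ImHABCL6/Uchl1 arrays, but the like share over ratios of genes was not computed. Psmb8 and Psmb5 are both read by probe sets whose names carry a suffix, so their ratio had no value when such probe sets were left out.

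Other proteasome genes were lower in most cases without passing the test. Of the standard catalytic subunits, other activators and assembly factors 10 of 11 were below 0, with a median of -0.22, and of the 11 structural core subunits 11 of 11, with a median of -0.11, against 49.4% and 0.0029 for all genes; limma called 0 of 11 in each. Psmf1, a proteasome inhibitor (-0.26, SE 0.15), and Psme4, an activator (-0.19, SE 0.12), lay lower in all 3 ImHABCL6/Uchl1 arrays. They were 2 of 11 in the first list, with 0 of 11 in the core, against 5.49% of all genes. Psmf1 was at -0.14 without ImHABCL6/Uchl1 replicate 1 and -0.07 with the erythroid covariate. Averaging probe sets put Psmf1 at -0.55 and Psme4 at -0.04. Psmg2 (-0.28) and Psmg3 (-0.26), assembly chaperones, overlapped between groups, as did the core subunits of smallest p, Psma1 (-0.20), Psma3 (-0.25), Psma5 (-0.11) and Psma7 (-0.17). Both counts rested on ImHABCL6/Uchl1 replicate 2: without it 4 of 11 and 1 of 11 were lower, with medians of 0.02 and 0.07. Without ImHABCL6 replicate 1 the core count was 6 of 11 and its median -0.02, and array weights gave 7 of 11 (median -0.08) and 5 of 11 (median 0.01). With the erythroid covariate the medians were -0.53 and -0.42, and averaging probe sets put the first list at -0.10.

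Of 25 listed heavy chains and other partners of β2-microglobulin 14 were measured by a probe set of their own, and 8 of 14 were below 0 (median -0.03), with 0 of 14 called by limma; without ImHABCL6 replicate 1 the count was 4 of 14. The 6 partners above 0 were all dim: among genes brighter on average than the median gene, 6 of 6 remaining partners were below 0, with a median of -0.11 against -0.06 for all such genes. With the erythroid covariate the median of the 14 was 0.05. The classical chain H2-K1 read 13.51, 12.75 and 13.10 in ImHABCL6 mice and 13.12, 12.84 and 13.11 in ImHABCL6/Uchl1 mice, and H2-D1 read 13.33, 12.87 and 12.91 against 13.13, 12.53 and 13.07. H2-K1 differed by -0.09 and H2-D1 by -0.13, with overlapping groups; without ImHABCL6 replicate 1 they were at 0.10 and 0.02, without ImHABCL6/Uchl1 replicate 2 at -0.0030 and 0.06, and H2-D1 was at -0.44 without suffixed probe sets. Both are uncertain because class I genes are close copies of each other and their probe sets carry the suffix for probes that may bind related transcripts.

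H2-T24, a non-classical class I gene, was the exception among these partners. It read 7.72, 8.68 and 8.71 in ImHABCL6 mice and 6.93, 7.42 and 7.38 in ImHABCL6/Uchl1 mice, lower in 3 of 3 than in any control. Of the 14 partners 1 was thus lower with no overlap, against 5.49% of all genes. The difference was -1.13 (SE 0.28, unadjusted p = 0.0038), with a limma adjusted p of 0.854, and -0.71 with the erythroid covariate. Next by p were Cd1d2, a lipid-presenting relative, Hfe, a regulator of iron uptake, and Mr1, which presents vitamin metabolites. All 3 were dim, with control and ImHABCL6/Uchl1 means of 4.30 and 4.53, 4.37 and 4.601, and 5.99 and 6.13, and their groups overlapped.

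Chaperones and peptidases of the loading pathway spread on both sides of 0, with 9 of 15 lower, a median of -0.03 and 0 of 15 called by limma. The smallest p belonged to Hspa5, the main chaperone of the endoplasmic reticulum (-0.32, SE 0.20), Uggt1, a folding sensor (0.18), Canx, the lectin chaperone calnexin (-0.16), and Pdia3, a disulphide isomerase that works with tapasin (-0.25). All 4 overlapped between the groups. The count was 3 of 15 without ImHABCL6/Uchl1 replicate 2 or with array weights, 5 of 15 without ImHABCL6 replicate 1 and 14 of 15 with the erythroid covariate.

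Among factors that act on class I promoters with NLRC5, 7 of 11 were below 0 (median -0.07), and limma called 0 of 11. Kat2b, a histone acetyltransferase, read 10.57, 10.47 and 10.66 in ImHABCL6 mice and 9.86, 10.06 and 10.22 in ImHABCL6/Uchl1 mice, a difference of -0.52 (SE 0.14, limma adjusted p = 0.868) with no overlap. Another probe set changed this: without suffixed probe sets Kat2b was at 0.03. Nfya, the NF-Y subunit that contacts CCAAT, read 8.64, 8.68 and 8.80 against 8.50, 8.12 and 8.26, a difference of -0.42 (SE 0.14, limma adjusted p = 0.983), and was at -0.16 without suffixed probe sets. Of these factors 2 of 11 were lower with no overlap, against 5.49% of all genes. Ciita, the class II counterpart of Nlrc5 (0.23), and Rfxank, an RFX subunit (-0.16), overlapped. The count was 3 of 11 and the median 0.02 without ImHABCL6/Uchl1 replicate 2, and 4 of 11 and 0.01 after quantile normalization.

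Interferon signalling genes that act upstream of the members were lower in 10 of 14 cases (median -0.15), with 0 of 14 called by limma. Irf9, the DNA-binding subunit of the interferon-activated factor ISGF3, read 9.35, 9.33 and 9.54 in ImHABCL6 mice and 8.70, 8.54 and 9.02 in ImHABCL6/Uchl1 mice. It was lower in 3 of 3 than in any control, a difference of -0.66 (SE 0.16, unadjusted p = 0.00339, limma adjusted p = 0.854). In this list 1 of 14 genes was lower with no overlap, against 5.49% of all genes. Irf1, a direct activator of Psmb9 and Tap1, read 10.72, 9.12 and 9.61 in ImHABCL6 mice and 9.60, 9.93 and 10.42 in ImHABCL6/Uchl1 mice, a difference of 0.16 (SE 0.39) with overlapping groups. It was 0.62 without ImHABCL6 replicate 1, 0.66 with array weights, 0.36 without ImHABCL6/Uchl1 replicate 1, 0.06 without ImHABCL6 replicate 3, -0.18 without ImHABCL6 replicate 2 and -0.06 without ImHABCL6/Uchl1 replicate 3, and it was named after its values were seen. Ifng, the cytokine itself, was too dim for its difference to be read (3.38 and 3.13 on average, against array minima of 2.16 to 2.24). The type I interferon receptor chains Ifnar1 and Ifnar2 differed by -0.24 and -0.35. Without ImHABCL6/Uchl1 replicate 2 the list had 7 of 14 lower and a median of -0.00018, and without ImHABCL6 replicate 1 its median was -0.10.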

How the data were processed

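RNA of bead-purified germinal centre B cells was labelled with Affymetrix's 3' IVT Express kit for mouse expression arrays, per the labels' protocols. The deposited values are log2 levels that the authors made with RMA and Partek, per the submitters' processing notes, which give neither versions nor settings. RMA normalizes between arrays and compresses differences of dim and of very bright probe sets.

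Gene symbols came from the platform annotation and were checked by Entrez identifier against RefSeq GRCm38.p6 (0 symbols changed). Of 45101 probe sets, 34945 had exactly 1 symbol, and the brightest of each gene was used (18193 genes). limma 3.58.1 in R 4.3.3 (lmFit, eBayes, two-sided, no block) was fitted on all genes with Benjamini-Hochberg adjustment and a threshold of 0.05. The steps were tested on simulated data. Members, gene lists and alternatives were chosen with earlier results of these data known, and the ratios of immunoproteasome to standard subunits after the values were seen. Named were all members, Uchl1, Bcl6, Psmb5, Psmb6, Psmb7, 4 genes of smallest p in each other pathway list and the 8 genes most like the members' mean; H2-K1, H2-D1 and Irf1 were added after their values were seen. Of the standard subunit list, those beside the catalytic subunits were named by p. Beside the erythroid, neutrophil and B-cell markers given above, markers of germinal centre B cells, T cells, NK cells, macrophages, dendritic cells, plasma cells and megakaryocytes had median differences of 0.02, 0.03, -0.08, 0.02, 0.02, 0.04 and 0.06, and 0 were called. Promoters were taken from the RefSeq table of GRCm38.p6. Figures were drawn with matplotlib 3.10.9.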

Additional observations from a re-analysis of the deposited data

How the results depend on the processing

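No alternative gave a call: 0 of the measured members and 0 genes overall had a limma adjusted p under 0.05 under any of the 15 alternatives, and no alternative separated the groups for a member toward lower values. The median difference of the members ran from -0.34 (erythroid covariate) to 0.22 (without ImHABCL6/Uchl1 replicate 2). With the replicate block the median stayed at -0.00044, 5 of 9 members were lower, and no call changed; same-numbered arrays had deviations that correlated at 0.431, 0.194 and -0.261, so the numbers were not taken as pairs. The number of lower members moved from 5 to 3 after quantile normalization, 1 with array weights and 9 with the erythroid covariate, and to between 0 and 8 without single arrays. Single differences changed sign as follows. After median centring Psmb8 was at -0.014, and after quantile normalization Psmb10 was at 0.081 and Psme1 at 0.0054. Array weights gave 0.12 for Psmb9, 0.34 for Psmb10, 0.17 for Psme1 and 0.18 for B2m. The erythroid covariate gave -0.44 for Psmb8, -0.082 for Tap1, -0.18 for Tap2 and -0.038 for Tapbp. Leaving out single arrays turned the sign of every measured member at least once, with values of -0.17 to 0.31 for Psmb8, -0.29 to 0.12 for Psmb9, -0.19 to 0.32 for Psmb10, -0.19 to 0.14 for Psme1, and -0.066 to 0.33 for Tap1. They were -0.011 to 0.31 for Tap2, -0.10 to 0.23 for Tapbp, -0.24 to 0.10 for B2m and -0.51 to 0.15 for Nlrc5. The number of arrays limits what could be seen, and with suffixed probe sets left out Psmb8, Tap2 and B2m had no probe set.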
